A study of Mus musculus with 16 samples.

Results

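The effect of the heterozygous Dnm2SL mutation on the tibialis anterior was described by setting the 6 Dnm2SL/+ ASO Control libraries against the 4 WT ASO Control libraries of a raw gene count table. These 10 libraries were chosen by their labels alone, out of 16 in the series, and 15649 of the 30037 genes in the table had enough counts to be tested. All mice were male C57BL/6N, aged 7 weeks, and both groups had been given the same control antisense oligonucleotide (ASO Control), so that they differ by genotype only as far as the labels tell. The other 6 libraries were from WT and Dnm2SL/+ mice given ASO1, an oligonucleotide directed against Dnm2, and entered the fit to share its estimate of the spread. The labels do not say which change the SL allele carries, and counts per gene do not separate the mutant allele from the normal one. They also do not say that each library came from a different mouse, so the p-values below measure the spread between these libraries. No library without an oligonucleotide was analysed here.

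Dynamin 2 is a large GTPase that assembles around the necks of budding membranes and pinches them off, and in muscle fibres it is also found near the T-tubules, the membrane folds that carry the action potential inward. Dominant mutations of its gene cause centronuclear myopathy, in which nuclei that belong at the rim of the fibre lie in its centre, and the series presents the Dnm2SL/+ mouse as a model of this disease. The tibialis anterior is a fast muscle of the lower leg, made mainly of fibres that run on glycolysis and contract quickly. RNA of a whole muscle also holds the RNA of the fibroblasts, vessels, nerves and blood cells in it.

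Total counts ran from 30334014 to 33667052 per library in the 10 libraries, and levels are given as CPM, counts relative to the size of the library, after scaling by the trimmed mean of M-values (TMM). A gene was called where its Benjamini-Hochberg adjusted p in the quasi-likelihood test of edgeR was under 0.05, and log2FC is the log2 of the level in Dnm2SL/+ over that in WT. The fast fibre markers summed to 194100 to 213800 CPM in WT and to 145200 to 166500 CPM in Dnm2SL/+, so both groups were skeletal muscle, whereas 5 cardiac markers summed to at most 9.741 CPM. A principal component with 48.9% of the variance separated the genotypes, with the WT libraries between -56.3 and -33 and the Dnm2SL/+ libraries between 14.7 and 43.9. Several libraries stood apart from their group. WT replicate 2 held transcripts typical of liver, WT replicate 1 lay nearest to the mutant libraries, Dnm2SL/+ replicate 1 held high interferon-induced transcripts, and Dnm2SL/+ replicate 6 lay nearest to WT. Their values are given beside the results they touch.

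The mutated gene itself was measured first. Dnm2 (ENSMUSG00000033335, GRCm38 chromosome 9, 21424908 to 21507759, plus strand) stood at 52.8, 55.7, 45.4 and 57.2 CPM in WT replicates 1 to 4 and at 46.4, 59.5, 65.1, 61.9, 61.4 and 35.2 CPM in Dnm2SL/+ replicates 1 to 6. The groups overlapped, with replicate 6 the lowest of the 10 libraries and replicate 3 the highest. The log2FC was 0.06 (95% confidence interval -0.25 to 0.36, adjusted p = 0.796), and an exact two-sided permutation test of log2 CPM gave p = 0.876. The interval leaves room for a rise of up to 0.36 or a fall of up to 0.25 on the log2 scale. Dnm2 overlaps exons of Tmed1 on the other strand. A count of the whole gene does not test the labelled genotype, since the allele is a mutation and not a deletion.

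The mutation was accompanied by changes in about as many genes upward as downward, but the rises were larger. Of the 15649 genes tested, 5021 (32.1%) were called, with 2456 up (15.7%) and 2565 down (16.4%). Of the called genes 3449 did not overlap between the groups, while 3649 genes (23.3% of those tested) did not overlap in all. An absolute log2FC above 1 was reached by 1202 called genes (7.68%), of which 888 rose and 314 fell. More than 8-fold separated the groups in 135 genes that rose and in 20 that fell. Changes of less than 1.5-fold made up 40.68% of the rises and 70.76% of the falls. Fewer cells of a type and less RNA per cell cannot be told apart in a whole muscle, and this holds for each of the changes below.

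**Figure D1:**
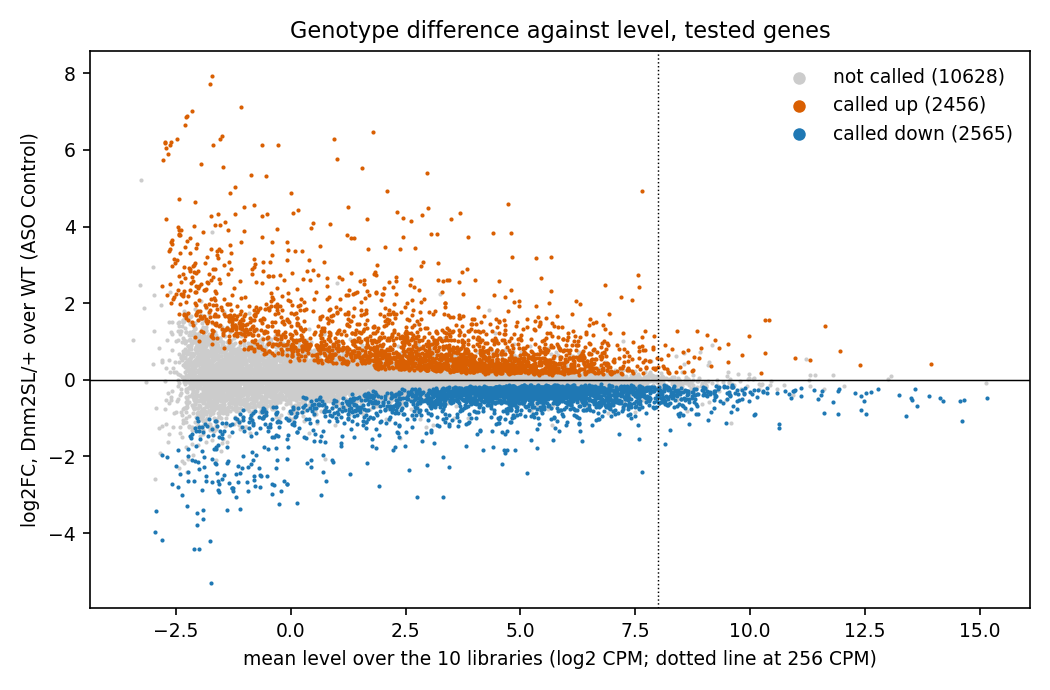
Log2FC of Dnm2SL/+ ASO Control over WT ASO Control against the mean log2 CPM over the 10 libraries, 1 point per tested gene, with called genes coloured by direction and grey points for genes not called. The rises spread widely at low levels, while most of the 254 called genes above 256 CPM lie below 0.

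The direction of the change depended on how abundant a gene was. Below 1 CPM 13.02% of 3356 genes rose and 5.602% fell. Above 256 CPM 10.35% of 396 genes rose and 53.79% fell, with a median log2FC of -0.25. In the band from 16 to 64 CPM the shares were 15.27% and 24.57%. The median standard error was 0.39 below 1 CPM and 0.08 above 256 CPM, so a change of a given size was called more readily in abundant genes. The TMM factors ran from 0.8989 to 0.9574 in WT and from 1.049 to 1.119 in Dnm2SL/+, without overlap. After this scaling, genes higher in the mutant gained 57839 CPM in sum and lower ones lost 214556 CPM. Under upper-quartile scaling 2691 genes of all levels were called up and 2275 down. With the 20 most counted genes removed 2519 were called up and 2403 down. The bands of level were not recounted under these alternatives, so how far the fall of abundant genes rests on the scaling was not tested. Protein-coding genes were called more often (34.2% of 13640) than long intergenic RNAs (29.17% of 456) and processed pseudogenes (5.21% of 499), a difference read here as a description because these classes also differ in level.

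**Figure D2:**
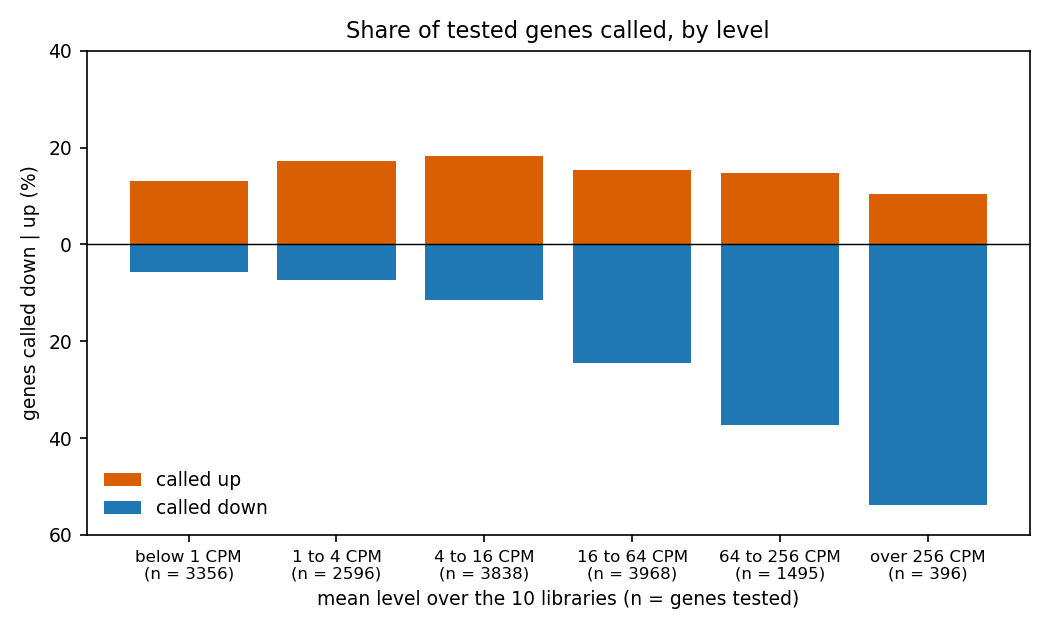
Share of tested genes that were called up (above 0) and down (below 0) in Dnm2SL/+, in percent, for 6 bands of mean CPM over the 10 libraries. The share called down grows from 5.602% below 1 CPM to 53.79% above 256 CPM.

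A few abundant transcripts held much of the CPM lost. The 6 genes with the largest loss were Myh4, Atp2a1, mt-Cytb, mt-Co1, mt-Nd5 and mt-Nd1. Myh4 (ENSMUSG00000057003, GRCm38 chromosome 11, 67238029 to 67260446), the myosin heavy chain of the fastest fibres, stood at 34408, 39419, 43427 and 40053 CPM in WT and at 16840 to 22901 CPM (median 18446) in Dnm2SL/+. The groups did not overlap (log2FC -1.07 ± 0.12, SE, adjusted p = 1.47e-05). Atp2a1, the calcium pump of fast fibres (log2FC -0.48 ± 0.09, SE, adjusted p = 0.000665), and the mitochondrially encoded mt-Cytb (log2FC -0.54 ± 0.09, SE, adjusted p = 0.000293) and mt-Nd5 (log2FC -0.94 ± 0.09, SE, adjusted p = 3.87e-06) were also lower in every Dnm2SL/+ library than in any WT library. mt-Nd5 overlaps mt-Nd6 on the other strand. The 10 genes with the largest loss held 41.93% of all CPM lost.

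The largest gains in CPM were those of Myh1, Fhl1, Des, H19, Mb and Hspb7. Fhl1, a LIM protein of the sarcomere, stood at 2245, 1203, 1537 and 2201 CPM in WT and at 3517 to 5409 CPM (median 4937) in Dnm2SL/+, without overlap (log2FC 1.42 ± 0.18, SE, adjusted p = 2.99e-05). Des, the muscle intermediate filament desmin, rose from 3166, 2850, 2916 and 2868 CPM to 4243 to 5238 CPM (median 5088) (log2FC 0.74 ± 0.07, SE, adjusted p = 1.89e-06). H19, an imprinted long noncoding RNA of growing muscle, rose from 694, 705, 574 and 942 CPM to 1607 to 2695 CPM (median 2197) (log2FC 1.55 ± 0.21, SE, adjusted p = 4.38e-05). Myh1, the myosin heavy chain of type 2X fibres, was called but overlapped, since WT replicate 4 at 15984 CPM lay above Dnm2SL/+ replicate 6 at 14101 CPM (log2FC 0.42 ± 0.12, SE, adjusted p = 0.0168), and its call was lost without WT replicate 2 (adjusted p = 0.0648) or 3 (adjusted p = 0.0551). Mb, the oxygen carrier myoglobin, rose by little (log2FC 0.38 ± 0.13, SE, adjusted p = 0.0375) and was not called without WT replicate 2 or 3 or Dnm2SL/+ replicate 1 or 3 (adjusted p = 0.0578 to 0.127).

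The counts were spread over more genes in the mutant. It took 60 to 71 genes to make up 50% of the counts of a WT library and 100 to 126 in a Dnm2SL/+ library (means 67.3 ± 4.99 and 112 ± 9.90, SD, n = 4 and 6, exact two-sided permutation p = 0.00476, the smallest that 4 against 6 allow). Genes above 1 CPM numbered 12114 ± 136 in WT and 12319 ± 64.8 in Dnm2SL/+ (SD, exact two-sided permutation p = 0.00952). These ranges overlapped, from 11938 to 12237 and from 12209 to 12401.

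The rising genes with the smallest p were picked among called genes whose groups did not overlap. Their separation and small spread therefore follow from the choice and are given as a description. Tspo (ENSMUSG00000041736, GRCm38 chromosome 15, 83563592 to 83574203), a cholesterol-binding protein of the outer mitochondrial membrane, stood at 12.1, 11.7, 9.36 and 9.28 CPM in WT and at 43.7 to 64.6 CPM (median 52.4) in Dnm2SL/+, 5.04-fold higher (log2FC 2.33 ± 0.14, SE, adjusted p = 9.76e-08). Serpinb1a (ENSMUSG00000044734, GRCm38 chromosome 13, 32842092 to 32851185), an intracellular inhibitor of neutrophil proteases, stood at 2.21, 2.40, 1.51 and 2.42 CPM in WT and at 31.8 to 59 CPM (median 42.1) in Dnm2SL/+ (log2FC 4.35 ± 0.26, SE, adjusted p = 9.76e-08). The highest WT library lay far below the lowest mutant library for both genes. Mvp, the shell protein of the vault particle, rose 2.64-fold (log2FC 1.40 ± 0.09, SE, adjusted p = 1.62e-07), and Nfkb2, a subunit of NF-kappa B, 3.02-fold (log2FC 1.59 ± 0.10, SE, adjusted p = 1.82e-07). Ahnak2 (ENSMUSG00000072812, GRCm38 chromosome 12, 112772194 to 112802657), a giant scaffold protein, rose 24.1-fold, from 5.60, 3.11, 4.51 and 2.86 CPM to 69.8 to 120.2 CPM (median 98.5) (log2FC 4.59 ± 0.32, SE, adjusted p = 4.51e-07).

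Ttc9 and Plekho1, which carry protein interaction and lipid-binding domains, belonged to the same 10 genes. Ttc9 rose 14.3-fold, from 8.49, 4.23, 4.65 and 5.76 CPM in WT to 44.8 to 102 CPM (median 89.6), and Plekho1 3.77-fold. Hexa, a lysosomal hexosaminidase subunit, changed by less (1.89-fold) but was tight in both groups, at 42.9, 42.6, 44.8 and 43.5 CPM in WT and 77 to 92.4 CPM (median 80.9) in Dnm2SL/+ (log2FC 0.92 ± 0.07, SE, adjusted p = 5.13e-07). Tspo, Nfkb2 and Hexa share exon sequence with genes on the other strand (Mcat, Psd and Tmem202, respectively).

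The falling genes with the smallest p, picked by the same rule, had log2FC values from -0.66 to -1.30. Their lack of overlap and small spread again follow from the choice. Zfp609 (ENSMUSG00000040524, GRCm38 chromosome 9, 65692391 to 65827564), a zinc finger protein, stood at 39.6, 41.1, 40.0 and 40.9 CPM in WT and at 23.5 to 26.3 CPM (median 24.7) in Dnm2SL/+ (log2FC -0.71 ± 0.05, SE, adjusted p = 3.47e-07). Gpcpd1 (ENSMUSG00000027346, GRCm38 chromosome 2, 132529082 to 132587729), which splits glycerophosphocholine, fell from 479.8, 477, 615 and 559 CPM to 179 to 239 CPM (median 226) (log2FC -1.30 ± 0.10, SE, adjusted p = 7.24e-07). All 6 mutant libraries lay below all 4 WT libraries for both. Msrb3, a reductase of oxidised methionine, was nearly constant in WT at 201, 199.7, 201 and 200.1 CPM and stood at 99.7 to 130.0 CPM (median 109) in Dnm2SL/+ (log2FC -0.86 ± 0.07, SE, adjusted p = 1.41e-06). Gpd2, the mitochondrial glycerol phosphate dehydrogenase, fell from 292, 317, 318 and 309 CPM to 116 to 147 CPM (median 137) (log2FC -1.19 ± 0.10, SE, adjusted p = 1.13e-06).

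Among the other 6 of these genes, Ghr, the growth hormone receptor, fell from 176, 193, 181 and 193 CPM to 98.8 to 123 CPM (median 103) (log2FC -0.80 ± 0.06, SE, adjusted p = 1e-06). Itsn1, an endocytic scaffold known to bind dynamin, fell from 105, 122, 125 and 124 CPM to 72.5 to 79.2 CPM (median 74.5) (log2FC -0.66 ± 0.06, SE, adjusted p = 1.61e-06). Mapk9, a stress-activated kinase of the JNK family (log2FC -0.72 ± 0.06, SE, adjusted p = 1e-06), Lgr4, a receptor for R-spondins (log2FC -0.96 ± 0.08, SE, adjusted p = 1.72e-06), Osbpl6, of the oxysterol-binding family (log2FC -0.99 ± 0.09, SE, adjusted p = 1.71e-06), and Tex2 (log2FC -0.67 ± 0.06, SE, adjusted p = 1.71e-06) fell, without overlap as the rule required.

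Genes with large folds were taken by rank, from the ninth to the sixteenth largest log2FC in each direction among genes that had other than a provisional symbol, were called, averaged a log2 CPM of 1 or more and had groups that did not overlap. Timp1, an inhibitor of matrix metalloproteinases, stood at 2.02, 0.622, 0.275 and 0.477 CPM in WT and at 15.8 to 21 CPM (median 18.2) in Dnm2SL/+ (log2FC 4.39 ± 0.46, SE, adjusted p = 7e-06), with WT replicate 1 the highest of its group. Uchl1, a ubiquitin hydrolase best known from neurons, rose from 3.87, 1.03, 1.89 and 1.36 CPM to 25.9 to 45.9 CPM (median 39.3) (log2FC 4.19 ± 0.37, SE, adjusted p = 1.85e-06), and Cx3cl1, the chemokine fractalkine, from 2.21, 2.05, 1.45 and 1.39 CPM to 10.9 to 36.2 CPM (median 27.2) (log2FC 3.79 ± 0.35, SE, adjusted p = 2.38e-06). Cpne2, a calcium-dependent membrane-binding copine, rose 14.3-fold. Rrad, a small GTPase that restrains calcium channels, was uneven among the mutants, at 3.14 CPM in replicate 1 and 20.3 to 50.7 CPM in the other 5, against 3.01, 1.09, 1.17 and 0.697 CPM in WT (log2FC 4.30 ± 0.65, SE, adjusted p = 0.000149). Srrm4os rose 17.8-fold and overlaps Srrm4 on the other strand.

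Among the falls of the same ranks, Mstn (ENSMUSG00000026100, GRCm38 chromosome 1, 53061640 to 53068079), which encodes myostatin, the secreted inhibitor of muscle growth, stood at 44.8, 50.7, 82.1 and 52.9 CPM in WT and at 10.9 to 21 CPM (median 14) in Dnm2SL/+ (log2FC -1.90 ± 0.21, SE, adjusted p = 9.31e-06). Mettl21c, a lysine methyltransferase of muscle, fell from 69.5, 60.6, 57.2 and 90.6 CPM to 7.53 to 44.2 CPM (median 16) (log2FC -1.84 ± 0.34, SE, adjusted p = 0.000696), with replicate 6 at 44.2 CPM and the other 5 mutants at no more than 17.7 CPM. Kcng4, a modulatory potassium channel subunit, fell from 81.3, 103, 82.4 and 112 CPM to 12 to 62.7 CPM (median 24.7) (log2FC -1.77 ± 0.35, SE, adjusted p = 0.00112), again with replicate 6 the highest mutant. Ces1d, a carboxylesterase (log2FC -2.02 ± 0.27, SE, adjusted p = 4.29e-05), Slc2a3, a glucose transporter (log2FC -1.79 ± 0.19, SE, adjusted p = 7.98e-06), Dach2, a repressor known to act on myogenin (log2FC -1.73 ± 0.29, SE, adjusted p = 0.000331), and Glb1l2 (log2FC -1.75 ± 0.52, SE, adjusted p = 0.0177) also fell, though Glb1l2 was not called without WT replicate 3 (adjusted p = 0.0523). Ighm, the heavy chain of immunoglobulin M (log2FC -1.83 ± 0.32, SE, adjusted p = 0.00047), fell from 57.1, 67.8, 36.8 and 66.9 CPM to 9.20 to 33.2 CPM (median 13.6).

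**Figure D3:**
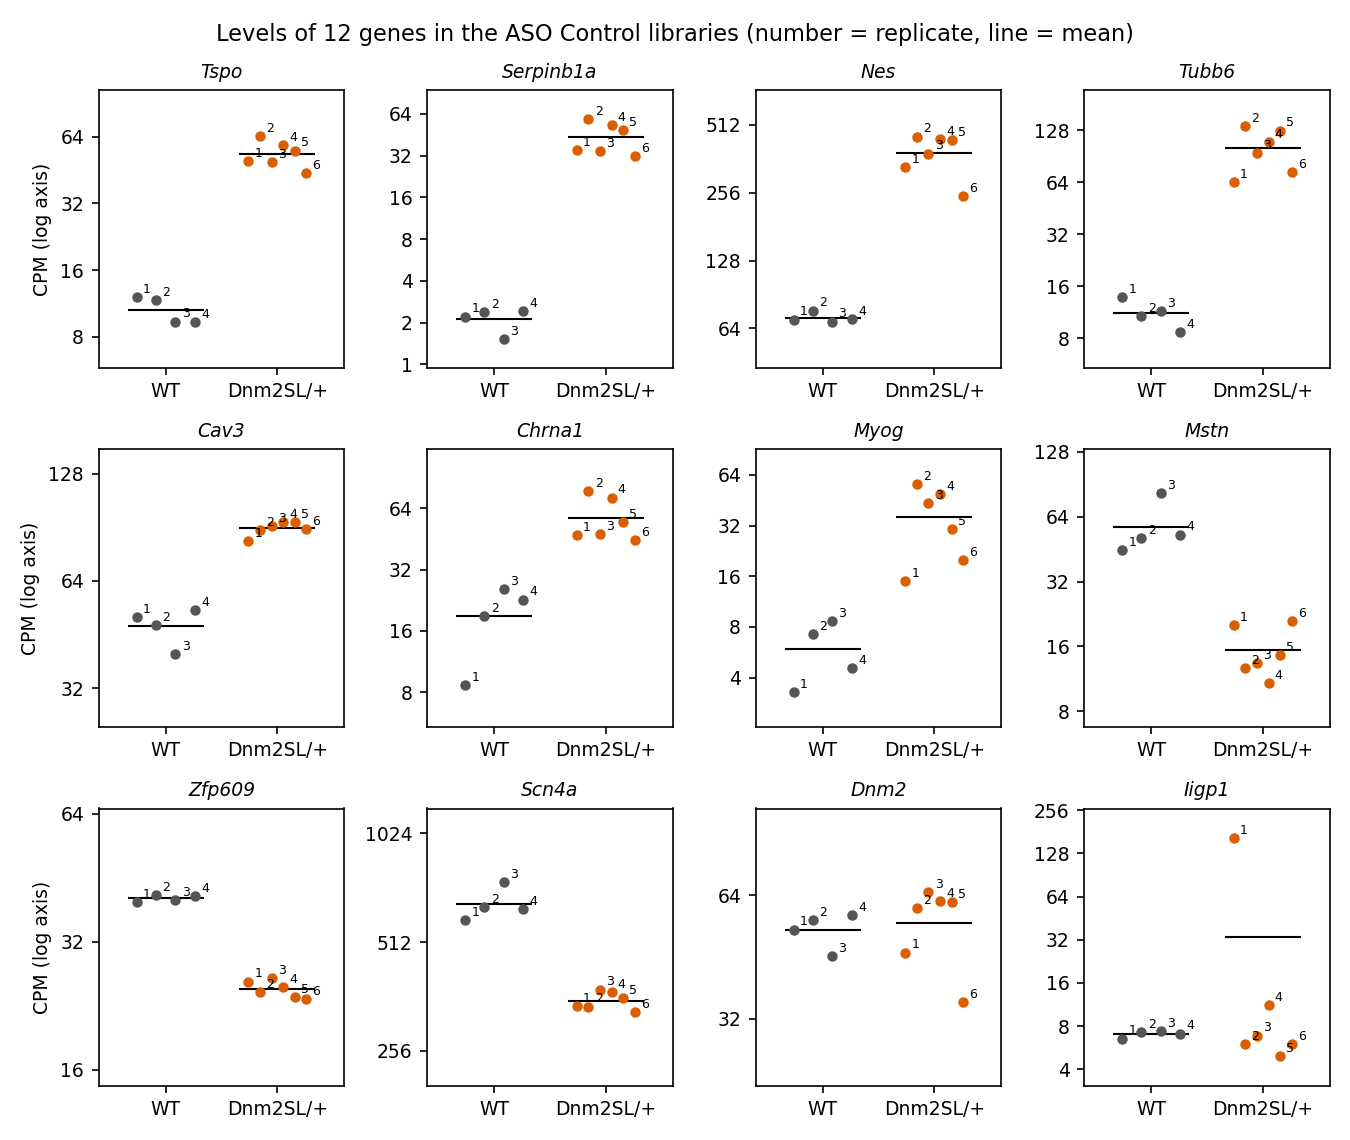
CPM on a log axis of 12 genes in the 4 WT ASO Control and the 6 Dnm2SL/+ ASO Control libraries, 1 point per library with the replicate number beside it and a line at the group mean. Tspo, Serpinb1a, Nes, Tubb6, Mstn and Zfp609 have groups that do not overlap, whereas Dnm2 and Iigp1 overlap and replicate 1 alone holds Iigp1 at 165 CPM.

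The changes were then counted in 48 lists of genes by function, each to be read against the 15.7% of all tested genes called up and the 16.4% called down. These shares depend on level, and the share called down reached 37.26% from 64 to 256 CPM and 53.79% above 256 CPM. The lists were not matched for level, so falls in a list of abundant genes may lie near the share for their level. They were also chosen with earlier results of these data known. Shares above those of all genes may in part reflect that choice, and the counts are a description only. The cytoskeleton came first. Of 18 tested genes of intermediate filaments and their linkers 13 rose and 1 fell, with a median log2FC of 0.88. Nes (ENSMUSG00000004891, GRCm38 chromosome 3, 87971078 to 87980451), the filament protein nestin of immature and regenerating muscle and of the endplate region, stood at 70.0, 76.8, 68.5 and 70.3 CPM in WT and at 247 to 454 CPM (median 409) in Dnm2SL/+ (log2FC 2.42 ± 0.15, SE, adjusted p = 1.66e-07). Lmna, the nuclear lamin A and C gene, rose from 72.1, 62, 56.2 and 55.9 CPM to 121 to 195 CPM (median 177) (log2FC 1.44 ± 0.12, SE, adjusted p = 1.69e-06). Krt18, a keratin that muscle fibres do not normally make in quantity, was highest in replicate 2 at 37.8 CPM and lowest in replicate 1 at 9.48 CPM among the mutants, while no WT library exceeded 0.56 CPM.

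Microtubule and actin genes also moved mostly upward. Of 29 tested tubulins and microtubule proteins 14 rose and 3 fell. Tubb6 (ENSMUSG00000001473, GRCm38 chromosome 18, 67390717 to 67402749), a beta-tubulin known to rise in regenerating fibres, stood at 13.8, 10.8, 11.5 and 8.66 CPM in WT and at 64.3 to 136 CPM (median 102) in Dnm2SL/+ (log2FC 3.17 ± 0.25, SE, adjusted p = 1.07e-06). Tubb5, another beta-tubulin (log2FC 0.84 ± 0.08, SE, adjusted p = 4.25e-06), the microtubule-binding Map1b (log2FC 1.45 ± 0.18, SE, adjusted p = 2.03e-05) and the kinesin light chain Klc1 (log2FC 0.60 ± 0.08, SE, adjusted p = 3.46e-05) rose as well. Tubulin genes are alike in sequence, so reads that fit several of them make their single values uncertain. Of 50 actin-remodelling genes and small GTPases 20 rose and 4 fell. Rhoc, a small GTPase, rose from 28.6, 23.1, 21.5 and 20.5 CPM to 49.4 to 65.9 CPM (median 57.4) (log2FC 1.29 ± 0.12, SE, adjusted p = 2.95e-06), Cttn, the actin-branch stabiliser cortactin, by a log2FC of 0.69, and Rhoa by 0.34. Tiam1, an exchange factor for Rac, fell (log2FC -2.18 ± 0.30, SE, adjusted p = 5.51e-05).

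Proteins that bind and mend the surface membrane were called mostly upward. Of 27 annexins and membrane repair genes 17 rose and 2 fell, with a median log2FC of 0.40. Anxa2, an annexin that gathers at membrane wounds, stood at 48.3, 31.7, 32.2 and 29.4 CPM in WT and at 93.2 to 176 CPM (median 135) in Dnm2SL/+ (log2FC 1.98 ± 0.21, SE, adjusted p = 6.35e-06). Anxa4 rose from 17, 11.6, 13 and 12.4 CPM to 42.1 to 66.6 CPM (median 57.7) (log2FC 2.04 ± 0.17, SE, adjusted p = 1.12e-06), and Trim72, which encodes the repair protein MG53, from 227, 223, 229.8 and 224 CPM to 314 to 392 CPM (median 358) (log2FC 0.65 ± 0.06, SE, adjusted p = 2.26e-06). For all 3 the lowest mutant library lay above the highest WT library. Of 11 tested S100 calcium-binding proteins 7 rose and none fell. S100a13 rose from 8.61, 7.22, 6.88 and 8.07 CPM to 21.5 to 34.7 CPM (median 29.2) (log2FC 1.89 ± 0.14, SE, adjusted p = 5.07e-07), S100a16 by a log2FC of 0.71 and S100a6 by 1.54, and S100a4 from 4.2, 1.65, 1.45 and 0.844 CPM to 14.8 to 38.1 CPM (median 31.4) (log2FC 3.79 ± 0.46, SE, adjusted p = 1.93e-05).

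Caveolae, the small pits of the surface membrane, were covered by 10 genes, of which 6 rose and none fell. Cav3 (ENSMUSG00000062694, GRCm38 chromosome 6, 112459505 to 112472872), the muscle caveolin, stood at 50.7, 48.1, 39.9 and 52.9 CPM in WT and at 83 to 93.5 CPM (median 90.6) in Dnm2SL/+ (log2FC 0.91 ± 0.07, SE, adjusted p = 1e-06). Cavin4, a caveolar coat protein of muscle, had 4 mutants between 328 and 362 CPM and replicates 1 and 6 at 212 CPM, against 179.9, 179.7, 191 and 144 CPM in WT (log2FC 0.80 ± 0.16, SE, adjusted p = 0.00122). Cavin3 (log2FC 0.73 ± 0.14, SE, adjusted p = 0.000708) and Pacsin3, a membrane-bending protein (log2FC 0.28 ± 0.05, SE, adjusted p = 0.000336), rose too. The counts of rises in the annexin, S100 and caveolin lists stayed within 16 to 18, at 7 and at 6 when each of the 10 libraries was left out in turn.

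The attachment of the fibre to its surroundings changed in both directions. Of 26 tested integrins and their partners 9 rose and 2 fell, and of 36 costamere and dystrophin complex genes 10 rose and 8 fell. Itgb1, the common beta chain, rose from 250.05, 207, 230.4 and 219 CPM to 326 to 458 CPM (median 391) (log2FC 0.81 ± 0.08, SE, adjusted p = 6.17e-06). Itgav (log2FC 1.08 ± 0.13, SE, adjusted p = 1.41e-05) and Itga9 (log2FC 1.28 ± 0.16, SE, adjusted p = 2.26e-05) rose, and Itgb5 fell (log2FC -0.60 ± 0.08, SE, adjusted p = 6.14e-05). Tln2, the talin of mature muscle, fell from 151, 147, 171 and 153 CPM to 92.3 to 117 CPM (median 97.4) (log2FC -0.63 ± 0.07, SE, adjusted p = 9.23e-06), as did Sptb, a spectrin (log2FC -0.53 ± 0.09, SE, adjusted p = 0.000284). Without WT replicate 1 there were 11 rises and 4 falls of integrins, and the falls numbered 1 without any of WT replicates 2 to 4 or Dnm2SL/+ replicates 1, 2, 4 and 6. The falls of costamere genes numbered 5 without WT replicate 3 or Dnm2SL/+ replicate 2 or 4.

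Nuclear position is what defines the disease, so genes of the nuclear envelope and of nuclear movement were counted apart. Of 25 tested genes 4 rose and 9 fell. Bin1, an amphiphysin that shapes T-tubules and a centronuclear myopathy gene itself, rose from 599.8, 622, 606 and 610.5 CPM to 747 to 911 CPM (median 869.6) (log2FC 0.47 ± 0.07, SE, adjusted p = 0.000125). Tor1aip1, a protein of the inner nuclear membrane, fell from 158, 164, 189 and 155 CPM to 101 to 119.9 CPM (median 109) (log2FC -0.60 ± 0.06, SE, adjusted p = 7.47e-06). The other rises in this list with the smallest p were Lmna and Des, already given. Without WT replicate 3 the falls numbered 5.

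Genes of the neuromuscular junction rose more often than they fell. Of 25 tested genes of the endplate and the acetylcholine receptor 9 rose and 2 fell, with a median log2FC of 0.33. The receptor is a ring of subunits, in which the gamma subunit of the fetal muscle gives way to epsilon after birth. To show the start regions of these subunit genes, the 250 bases before the RefSeq start site on GRCm38.p6 are printed for Chrna1 (chr2:73580339-73580588, minus strand), Chrng (chr1:87205561-87205810, plus strand), Chrnb1 (chr11:69795938-69796187, minus strand) and Chrne (chr11:70619195-70619444, minus strand), each read along the gene, with E-boxes (CANNTG, which is its own reverse complement as a pattern) in capitals. The E-box is the letter pattern to which myogenin and other basic helix-loop-helix factors bind.
Chrna1: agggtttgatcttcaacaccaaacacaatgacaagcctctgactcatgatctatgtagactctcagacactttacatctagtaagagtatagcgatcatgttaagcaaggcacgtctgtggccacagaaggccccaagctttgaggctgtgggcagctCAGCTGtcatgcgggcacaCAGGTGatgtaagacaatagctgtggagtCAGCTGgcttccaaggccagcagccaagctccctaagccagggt
Chrng: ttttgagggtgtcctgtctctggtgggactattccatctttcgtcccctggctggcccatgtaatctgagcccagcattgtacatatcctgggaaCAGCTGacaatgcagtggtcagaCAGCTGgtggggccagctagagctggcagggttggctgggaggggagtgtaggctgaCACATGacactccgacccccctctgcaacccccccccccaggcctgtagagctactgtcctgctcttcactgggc
Chrnb1: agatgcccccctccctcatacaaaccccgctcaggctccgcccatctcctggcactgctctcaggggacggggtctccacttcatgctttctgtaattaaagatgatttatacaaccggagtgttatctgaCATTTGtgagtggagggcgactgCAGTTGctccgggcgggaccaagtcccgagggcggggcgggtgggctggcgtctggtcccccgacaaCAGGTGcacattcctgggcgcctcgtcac
Chrne: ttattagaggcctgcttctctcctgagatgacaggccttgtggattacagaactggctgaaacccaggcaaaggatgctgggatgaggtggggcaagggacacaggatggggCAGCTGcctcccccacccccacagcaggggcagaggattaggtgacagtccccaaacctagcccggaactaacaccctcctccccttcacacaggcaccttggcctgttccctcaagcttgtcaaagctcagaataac

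There were 3 E-boxes before Chrna1, Chrng and Chrnb1 and 1 before Chrne. Of 27025 RefSeq mouse promoters of the same length 66.04% held at least 1 and 12.13% at least 3, so the pattern is common and a match is a description only. Chrna1 (ENSMUSG00000027107, GRCm38 chromosome 2, 73563215 to 73580338), the alpha subunit, stood at 8.68, 18.9, 25.6 and 22.8 CPM in WT and at 44.6 to 77.7 CPM (median 51.4) in Dnm2SL/+ (log2FC 1.6 ± 0.26, SE, adjusted p = 0.000261). Chrnd, the delta subunit, rose from 2.40, 4.2, 5.58 and 5.72 CPM to 20.4 to 46.5 CPM (median 33.1) (log2FC 2.89 ± 0.37, SE, adjusted p = 3.69e-05). Both had their lowest WT value in replicate 1, and neither overlapped between the groups.

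The fetal and the adult subunit differed in level. Chrng was near silent in WT, at 0.128, 0.0933, 0.138 and 0.330 CPM, and stood at 0.113, 2.34, 0.915, 1.95, 1.21 and 1.48 CPM in Dnm2SL/+ replicates 1 to 6, so that replicate 1 stayed within the WT range (log2FC 2.95 ± 0.73, SE, adjusted p = 0.00592). Chrne stood at 9.77, 22.8, 21.8 and 20.3 CPM in WT and at 18.2 to 30.5 CPM (median 25.8) in Dnm2SL/+ and was not called (log2FC 0.45 ± 0.21, SE, adjusted p = 0.113, 95% confidence interval 0.01 to 0.89). Chrnb1, the beta subunit, was called (log2FC 0.56 ± 0.11, SE, adjusted p = 0.00125) although WT replicate 3 at 45.6 CPM lay above Dnm2SL/+ replicate 6 at 44.9 CPM. Among the other genes of the list, Erbb2, a receptor for the nerve factor neuregulin (log2FC 1.12 ± 0.13, SE, adjusted p = 1.21e-05), rose. Chrng, Chrnb1 and Chrne lie outside the naming rule and were given because their promoters are shown.

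Of 32 tested genes of muscle formation and fusion 8 rose and 5 fell. Myog (ENSMUSG00000026459, GRCm38 chromosome 1, 134289989 to 134292548), the transcription factor myogenin, stood at 3.27, 7.25, 8.64 and 4.55 CPM in WT and at 15, 56.7, 43.4, 49.5, 30.6 and 19.9 CPM in Dnm2SL/+ replicates 1 to 6 (log2FC 2.60 ± 0.36, SE, adjusted p = 7.38e-05). Replicates 1 and 6 were the lowest mutants, as they were for Chrnd. Tead4, a transcription factor, rose from 7.91, 11.3, 8.19 and 10.3 CPM to 19 to 37.9 CPM (median 30.3) (log2FC 1.66 ± 0.24, SE, adjusted p = 7.93e-05), and Myh8, the perinatal myosin, from 6.21, 6.04, 4.96 and 6.82 CPM to 10.1 to 13.2 CPM (median 11.3) (log2FC 0.94 ± 0.13, SE, adjusted p = 5.11e-05). Myf5, a factor of satellite cells, the resident stem cells, was low throughout and fell from 2.31, 1.06, 2.07 and 1.54 CPM to 0.315 to 0.808 CPM (median 0.588) (log2FC -1.55 ± 0.29, SE, adjusted p = 0.000728). Over 6 satellite cell markers 3 fell and none rose, and their sum ran from 41.97 to 51.94 CPM in WT and from 36.35 to 48.66 CPM in Dnm2SL/+. Cdh15 and Chodl, whose groups overlapped, made up most of this sum. Calcr was low, at 0.6845 to 1.721 CPM in WT and 0 to 0.1164 CPM in Dnm2SL/+. Pax7 stood at 1.064 to 2.676 CPM in WT and 0.3961 to 1.222 CPM in Dnm2SL/+, with overlap.

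Genes of the contractile apparatus were called in both directions. Of 28 myosin genes 8 rose and 7 fell, and of 51 genes of the thin filament and the Z-disc 17 rose and 14 fell. Without WT replicate 2 the myosin list held 5 rises. Mybpc2, the fast isoform of myosin-binding protein C, fell from 4913, 5747, 6339 and 5655 CPM to 2312 to 3531 CPM (median 3074) (log2FC -0.90 ± 0.12, SE, adjusted p = 4.09e-05), and Mylk2, the myosin light chain kinase of skeletal muscle, from 1679, 1600, 1717 and 1467 CPM to 739.9 to 977 CPM (median 851) (log2FC -0.93 ± 0.10, SE, adjusted p = 9.31e-06). Tnni1 (ENSMUSG00000026418, GRCm38 chromosome 1, 135779434 to 135810989), the slow troponin I, rose from 2.43, 4.23, 2.68 and 3.16 CPM to 31.8 to 60.1 CPM (median 35.5) (log2FC 3.73 ± 0.40, SE, adjusted p = 7.14e-06). Pdlim3, a Z-disc protein (log2FC 0.84 ± 0.11, SE, adjusted p = 3.59e-05), and Fhl2 (log2FC 2.28 ± 0.30, SE, adjusted p = 4.1e-05) rose. Of 6 slow fibre markers 4 rose and none fell, yet their sum overlapped, from 110.1 to 223.3 CPM in WT, where replicate 1 was highest, and from 156.6 to 424.7 CPM in Dnm2SL/+, where replicate 6 was highest. Myl3 was not called, but lay mostly lower in the mutant, at 57.8 to 148.9 CPM in WT and 17.2 to 84.8 CPM in Dnm2SL/+.

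Calcium handling genes were called more often downward than upward. Of 44 genes of calcium buffers, pumps and calcineurin signalling 9 rose and 21 fell. Calm3, a calmodulin, fell from 245, 294, 279.7 and 254 CPM to 121 to 163 CPM (median 138) (log2FC -0.95 ± 0.09, SE, adjusted p = 4.31e-06), and Camk2a, a calmodulin-dependent kinase, from 474, 530.0, 529 and 504 CPM to 257 to 302 CPM (median 285) (log2FC -0.86 ± 0.09, SE, adjusted p = 4.49e-06). A sister kinase, Camk2d, rose from 63.8, 53.6, 48.2 and 53.2 CPM to 104 to 187 CPM (median 165) (log2FC 1.5 ± 0.15, SE, adjusted p = 4.86e-06). None of these groups overlapped. Sln, sarcolipin, was at most 0.965 CPM in WT and ran from 12 to 80.5 CPM among the mutants, with replicate 6 the lowest.

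Of 38 channels and pumps of membrane excitability 10 rose and 10 fell. Scn4a (ENSMUSG00000001027, GRCm38 chromosome 11, 106318592 to 106353288), the sodium channel of the muscle action potential, fell from 589, 639, 749 and 633 CPM to 328 to 378 CPM (median 349) (log2FC -0.89 ± 0.08, SE, adjusted p = 1.79e-06), and its partner Scn4b from 825, 911, 918 and 839 CPM to 507 to 668 CPM (median 559) (log2FC -0.60 ± 0.08, SE, adjusted p = 3.59e-05). Kcnn3, a calcium-activated potassium channel known from denervated muscle, rose from 6.60, 3.64, 3.37 and 3.67 CPM to 12.8 to 41.3 CPM (median 33.3) (log2FC 2.82 ± 0.35, SE, adjusted p = 2.87e-05), with replicate 6 the lowest mutant. Cacng7 was low and fell (log2FC -1.39 ± 0.17, SE, adjusted p = 2.32e-05).

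**Figure D4:**
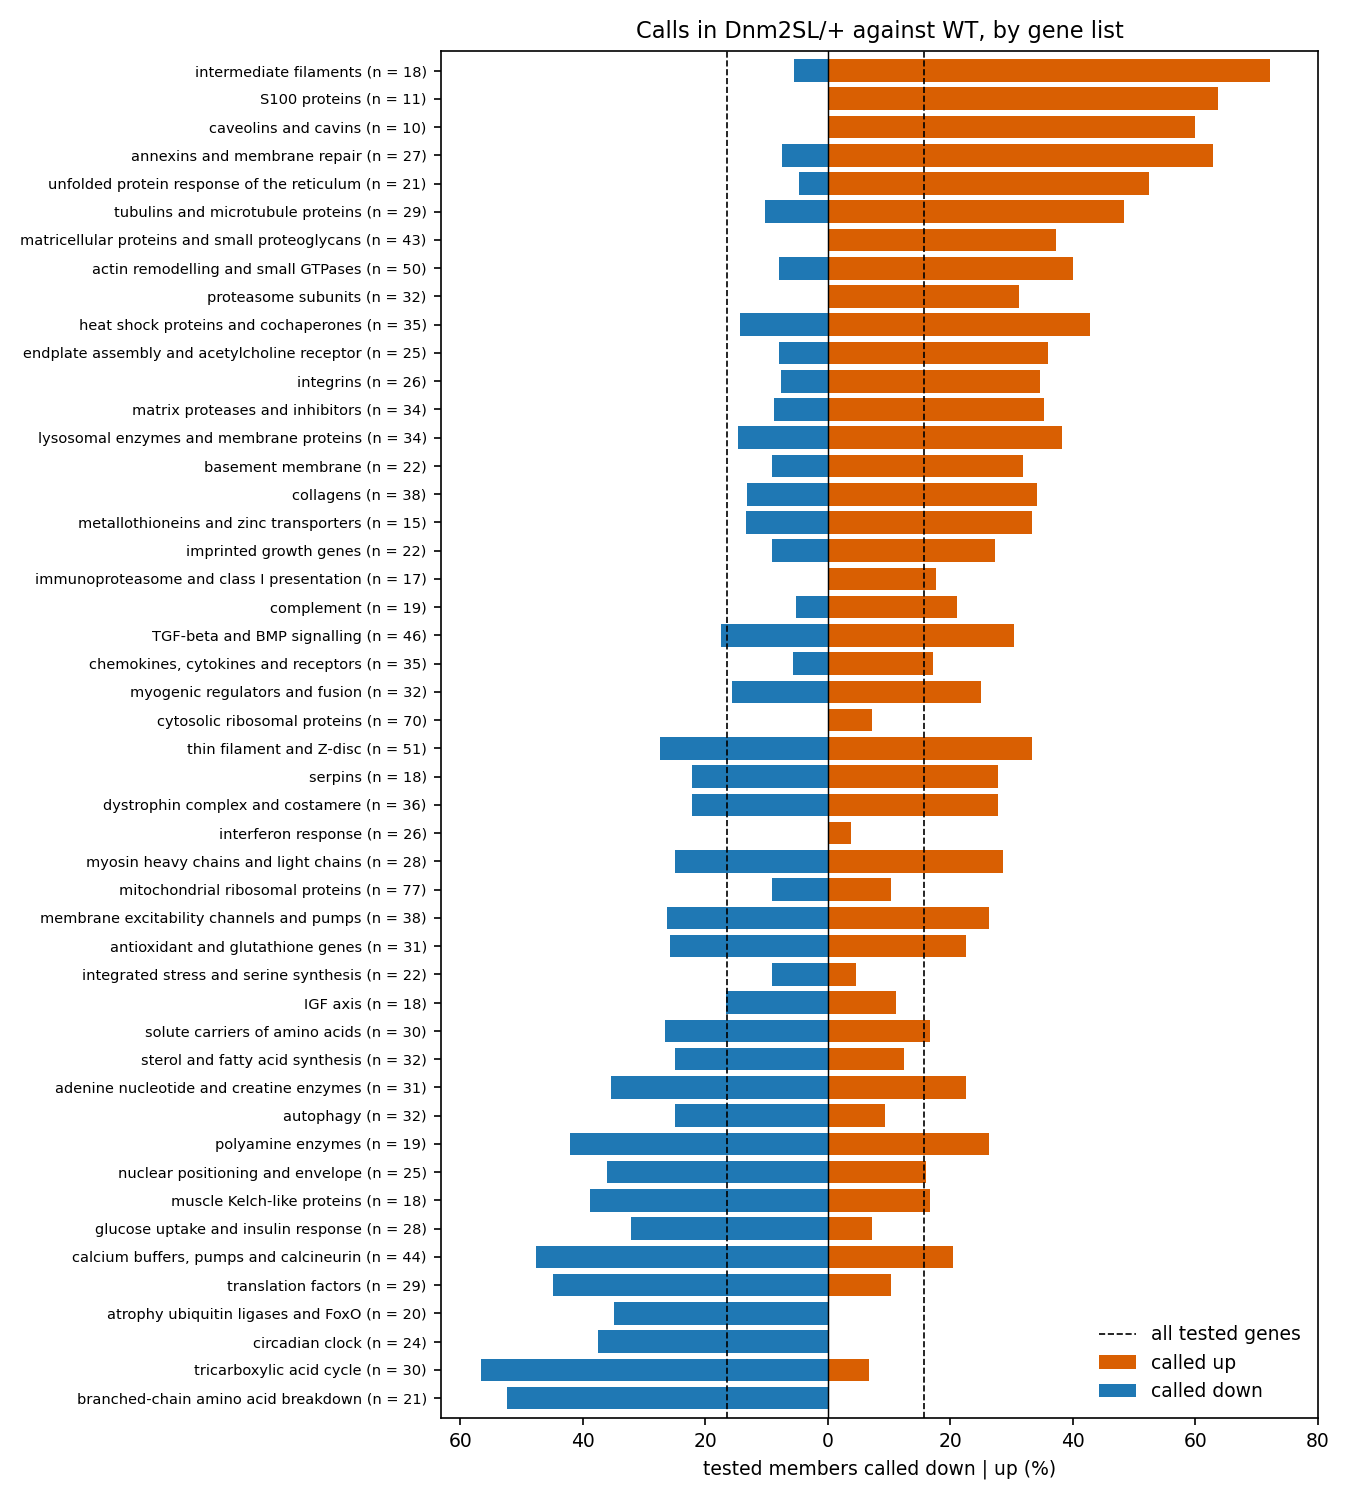
Share of the tested members of each of 48 gene lists that were called up (right, orange) and down (left, blue) in Dnm2SL/+, in percent, with the number of tested members beside each name and dashed lines at the 15.7% and 16.4% of all tested genes. Intermediate filaments reach 72.22% up, while the tricarboxylic acid cycle and branched-chain amino acid breakdown exceed 50% down. The dashed lines are not matched to the level of the genes in a list, and the lists were chosen with earlier results of these data known.

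In several pathways of energy metabolism more genes fell than rose, as they did among abundant genes as a whole. Of 30 genes of the tricarboxylic acid cycle and of pyruvate entry 17 fell and 2 rose, with a median log2FC of -0.22. Sdha, a subunit of succinate dehydrogenase, stood at 1253, 1392, 1418 and 1451 CPM in WT and at 906 to 1131 CPM (median 1035) in Dnm2SL/+ (log2FC -0.44 ± 0.07, SE, adjusted p = 0.000159). Suclg1, of the succinyl-CoA ligase (log2FC -0.38 ± 0.06, SE, adjusted p = 0.00013), and Idh3g, of isocitrate dehydrogenase (log2FC -0.39 ± 0.06, SE, adjusted p = 0.000238), fell by similar amounts. Pdk3, a kinase that switches off pyruvate dehydrogenase, rose from 1.51, 0.809, 0.860 and 0.734 CPM to 2.21 to 4.82 CPM (median 3.60) (log2FC 1.85 ± 0.28, SE, adjusted p = 0.000126). The groups of these 4 genes did not overlap. Without WT replicate 1, 2 or 3 the list held 1 rise.

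Breakdown of the branched-chain amino acids leucine, isoleucine and valine showed only falls among its calls, with 11 of 21 genes called down and a median log2FC of -0.28. Pcca, of propionyl-CoA carboxylase, fell from 70.0, 60.9, 62.1 and 64.2 CPM to 38.1 to 44.8 CPM (median 41.6) (log2FC -0.64 ± 0.07, SE, adjusted p = 5.28e-06). Aldh6a1, an enzyme of valine breakdown (log2FC -0.65 ± 0.08, SE, adjusted p = 2.83e-05), Mccc1 (log2FC -0.34 ± 0.06, SE, adjusted p = 0.000491) and Mccc2 (log2FC -0.42 ± 0.07, SE, adjusted p = 0.000361), the subunits of the leucine pathway carboxylase, fell too. The count of falls stayed between 10 and 13 when single libraries were left out.

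Enzymes of adenine nucleotides and creatine were called up in 7 and down in 11 of 31 cases. Prkab2 (ENSMUSG00000038205, GRCm38 chromosome 3, 97658193 to 97673812), a beta subunit of the energy sensor AMPK, stood at 539, 671, 767 and 694 CPM in WT and at 255 to 337 CPM (median 298) in Dnm2SL/+ (log2FC -1.17 ± 0.11, SE, adjusted p = 3.46e-06). The catalytic subunit gene Prkaa1 rose from 19.2, 17.7, 17 and 17.5 CPM to 28.1 to 46.3 CPM (median 34.4) (log2FC 1.01 ± 0.13, SE, adjusted p = 3.41e-05). Ampd1, the AMP deaminase of muscle, fell from 1150, 1064, 1138 and 1052 CPM to 534 to 691 CPM (median 627) (log2FC -0.84 ± 0.09, SE, adjusted p = 8.89e-06), and Hprt, which salvages purines, rose (log2FC 0.58 ± 0.07, SE, adjusted p = 1.61e-05).

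Of 28 genes of glucose uptake and the insulin response 9 fell and 2 rose, or 1 rose without any of WT replicates 1, 2 and 4 or Dnm2SL/+ replicates 2, 4 and 5. Slc2a4, the insulin-regulated glucose transporter GLUT4, fell from 661, 691, 765 and 754 CPM to 483 to 588 CPM (median 542) (log2FC -0.41 ± 0.07, SE, adjusted p = 0.000252), and Slc2a12 fell by a log2FC of -0.62 with overlapping groups, while the hexokinase Hk1 rose (log2FC 0.69 ± 0.11, SE, adjusted p = 0.000308). Of 32 genes of sterol and fatty acid synthesis 8 fell and 4 rose, among them Me1, the malic enzyme, which fell from 151, 169.8, 154 and 158 CPM to 65.5 to 99.6 CPM (median 77) (log2FC -1.01 ± 0.11, SE, adjusted p = 8.6e-06), and Acacb, which makes malonyl-CoA (log2FC -0.59 ± 0.08, SE, adjusted p = 9.28e-05). The falls of this list numbered 5 without Dnm2SL/+ replicate 2 or 5, and its rises 2 without WT replicate 3 or 4 or Dnm2SL/+ replicate 3 or 4. Of 30 tested amino acid carriers 5 rose, or 3 without WT replicate 4, and 8 fell. Slc38a4 (log2FC -1.6 ± 0.25, SE, adjusted p = 0.000191) and Slc43a1 (log2FC -1.07 ± 0.16, SE, adjusted p = 0.000125) fell. Of 19 tested polyamine genes 5 rose and 8 fell, and here Atp13a2, a lysosomal polyamine exporter, fell (log2FC -0.54 ± 0.07, SE, adjusted p = 6.16e-05) while the antizyme Oaz2 rose (log2FC 0.40 ± 0.06, SE, adjusted p = 0.000112).

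Chaperones were called more often upward, with small heat shock proteins among those of the smallest p. Of 35 heat shock proteins and cochaperones 15 rose and 5 fell. Cryab, alpha B-crystallin, which guards desmin filaments, stood at 689.8, 539, 635 and 643 CPM in WT and at 1199 to 1554 CPM (median 1351) in Dnm2SL/+ (log2FC 1.14 ± 0.09, SE, adjusted p = 1.13e-06). Hspb8, part of the complex that sends damaged filamin to autophagy, had replicates 1 and 6 at 545 and 519 CPM and the other 4 mutants at 784 to 920 CPM, against 346, 319, 339.5 and 328 CPM in WT (log2FC 1.17 ± 0.15, SE, adjusted p = 2.88e-05). Hspb1 (log2FC 1.39 ± 0.20, SE, adjusted p = 7.59e-05), Hspb3 (log2FC 1.00 ± 0.10, SE, adjusted p = 4.45e-06) and Hspb7 (log2FC 1.56 ± 0.25, SE, adjusted p = 0.000215) rose without overlap. Cryab overlaps Hspb2 on the other strand.

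The unfolded protein response of the endoplasmic reticulum was called up in 11 of 21 genes and down in 1, or in 2 without WT replicate 2. Pdia3, a disulfide isomerase, rose from 57.1, 52.6, 52.6 and 48.9 CPM to 67.9 to 88.6 CPM (median 73.1) (log2FC 0.50 ± 0.08, SE, adjusted p = 0.000164), and Xbp1, the transcription factor of this response, from 61.4, 57.1, 56.4 and 57.8 CPM to 64.5 to 83.5 CPM (median 79.6) (log2FC 0.40 ± 0.07, SE, adjusted p = 0.00032). Canx, the chaperone calnexin, changed by a log2FC of 0.24 and Manf by 0.77. Of 22 tested genes of the integrated stress response and serine synthesis 1 rose, Psat1 (log2FC 1.87 ± 0.25, SE, adjusted p = 5.11e-05), and 2 fell, Chac1 (log2FC -1.82 ± 0.37, SE, adjusted p = 0.00151) and the transcription factor Atf4 (log2FC -0.23 ± 0.08, SE, adjusted p = 0.0496). Atf4 was not called without WT replicate 3 or 4 or any 1 of Dnm2SL/+ replicates 1 to 5 (adjusted p = 0.074 to 0.178), and 2 genes of the list rose without WT replicate 1 or Dnm2SL/+ replicate 3 or 6. Chac1 stood at 55.1, 25, 113 and 48.5 CPM in WT, and Dnm2SL/+ replicate 5 at 26.2 CPM lay above WT replicate 2.

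Protein synthesis and breakdown moved by small amounts. Of 32 proteasome subunits 10 rose and none fell, and the 95% confidence interval of the log2FC lay within 1.5-fold of no change for all 32. Psmb4, a subunit of the core particle, stood at 110.1, 109, 100.3 and 108 CPM in WT and at 126 to 130.1 CPM (median 128) in Dnm2SL/+ (log2FC 0.26 ± 0.04, SE, adjusted p = 0.000259), and Psmd13 rose by a log2FC of 0.31. The rises numbered 6 without WT replicate 3, and 1 subunit was called down without WT replicate 1. Of 20 atrophy ligases and FoxO genes, which speed protein loss in wasting muscle, 7 fell and none rose, or 1 rose without Dnm2SL/+ replicate 1. Foxo4 fell from 233, 233, 279.6 and 228 CPM to 136 to 167 CPM (median 153) (log2FC -0.67 ± 0.09, SE, adjusted p = 3.2e-05), Fbxo40 from 435, 418, 558 and 453 CPM to 337 to 375 CPM (median 354) (log2FC -0.39 ± 0.08, SE, adjusted p = 0.00162), and Traf6 by -0.28 in log2FC.

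Among 29 translation factors 13 fell and 3 rose. Eif2s2, a subunit of initiation factor 2, fell from 78.1, 84, 90.6 and 86.3 CPM to 50.3 to 57.8 CPM (median 55.8) (log2FC -0.62 ± 0.08, SE, adjusted p = 2.19e-05), as did Eif4ebp2, a brake on cap-dependent translation (log2FC -0.46 ± 0.06, SE, adjusted p = 2.69e-05), and Eif4g1 (log2FC -0.41 ± 0.06, SE, adjusted p = 0.000149), whereas the elongation factor subunit Eef1b2 rose (log2FC 0.29 ± 0.05, SE, adjusted p = 0.000408). Of 70 tested cytosolic ribosomal proteins 5 rose and none fell, under the 15.7% of all genes, with Rps20 having the smallest p (log2FC 0.33 ± 0.06, SE, adjusted p = 0.000449). The rises numbered 3 without WT replicate 3 and 8 without Dnm2SL/+ replicate 3. These genes share sequence with many processed pseudogenes, so their counts are uncertain. Of 77 tested mitochondrial ribosomal proteins 8 rose and 7 fell, and 74 lay within 1.5-fold by their interval. Mrps12 (log2FC 0.56 ± 0.07, SE, adjusted p = 3.8e-05) rose and Mrpl50 (log2FC -0.32 ± 0.05, SE, adjusted p = 0.000266) fell. Their rises numbered 4 without WT replicate 1 or 3 and 13 without WT replicate 4, and their falls 4 without Dnm2SL/+ replicate 1, 3 or 4.

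Muscle Kelch-like proteins, the substrate adaptors of the ubiquitin ligase built on cullin 3, fell in 7 and rose in 3 of 18 cases. Cul3 itself stood at 344, 386, 406 and 406 CPM in WT and at 224 to 253 CPM (median 248) in Dnm2SL/+ (log2FC -0.65 ± 0.07, SE, adjusted p = 5.67e-06). Klhl33 (log2FC -0.86 ± 0.12, SE, adjusted p = 8.02e-05) and Kbtbd12 (log2FC -0.73 ± 0.08, SE, adjusted p = 8.11e-06) fell, and Klhl41, an adaptor mutated in nemaline myopathy, rose from 728, 651, 732 and 658 CPM to 903 to 1262 CPM (median 1132) (log2FC 0.66 ± 0.10, SE, adjusted p = 0.000129). None of these 4 overlapped between the groups.

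Of 32 autophagy genes 8 fell and 3 rose (1 without WT replicate 2), and of 34 tested lysosomal genes 13 rose and 5 fell. Ulk1, the kinase that starts autophagy, fell from 119, 110.4, 128 and 127 CPM to 59.8 to 78.5 CPM (median 74.8) (log2FC -0.76 ± 0.08, SE, adjusted p = 4.45e-06), with Ulk2 (log2FC -0.56 ± 0.08, SE, adjusted p = 6.12e-05) and the lipid scramblase Atg9a (log2FC -0.55 ± 0.07, SE, adjusted p = 4.08e-05). Gabarap, a protein of the autophagosome membrane, rose (log2FC 0.31 ± 0.04, SE, adjusted p = 6.24e-05). In the lysosome Ctsz, a cathepsin (log2FC 0.81 ± 0.10, SE, adjusted p = 2.87e-05), and Cd63, a membrane protein (log2FC 0.58 ± 0.07, SE, adjusted p = 2.96e-05), rose, and Gaa, the glucosidase deficient in Pompe disease, fell from 321, 333, 404 and 354 CPM to 217 to 258 CPM (median 242) (log2FC -0.57 ± 0.08, SE, adjusted p = 9.32e-05).

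Redox and metal-binding genes were called in both directions. Of 31 tested antioxidant genes 7 rose and 8 fell. Gpx1, a glutathione peroxidase, stood at 42.5, 45.5, 36.2 and 41.7 CPM in WT and at 76.8 to 102 CPM (median 90.7) in Dnm2SL/+ (log2FC 1.11 ± 0.10, SE, adjusted p = 2.26e-06), Gss, which makes glutathione, rose (log2FC 0.81 ± 0.09, SE, adjusted p = 1.31e-05), and Gstm1 fell (log2FC -0.49 ± 0.07, SE, adjusted p = 6.27e-05). Of 15 tested metallothioneins and zinc carriers 5 rose and 2 fell. Mt1 stood at 53.4, 41.4, 37.6 and 40.9 CPM in WT and at 162, 76.1, 76.2, 67.6, 133 and 111 CPM in Dnm2SL/+ replicates 1 to 6 (log2FC 1.27 ± 0.24, SE, adjusted p = 0.000949), and Mt2 at 57.9, 28.7, 26.5 and 25.8 CPM and 249, 117, 81, 69.0, 222 and 128 CPM (log2FC 2.05 ± 0.37, SE, adjusted p = 0.000578). Replicates 1 and 5 were the highest mutants for both genes. Mtf1, the zinc-sensing transcription factor of these genes, fell (log2FC -0.33 ± 0.06, SE, adjusted p = 0.0012).

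Extracellular matrix genes were called mostly upward, as were markers of the cells that make them. Of 43 matricellular proteins and small proteoglycans 16 rose and none fell, with a median log2FC of 0.62, and of 38 collagens 13 rose and 5 fell. Postn, periostin, stood at 21.4, 11, 9.64 and 9.02 CPM in WT and at 42.7 to 67.3 CPM (median 52.2) in Dnm2SL/+ (log2FC 2.04 ± 0.30, SE, adjusted p = 0.000123), Mgp, matrix Gla protein, at 34.3, 16.8, 20.7 and 18.5 CPM and 44.3 to 121 CPM (median 94) (log2FC 2.01 ± 0.26, SE, adjusted p = 3.8e-05), and Bgn, biglycan, at 107, 61.4, 51.6 and 50.2 CPM and 147 to 198 CPM (median 163) (log2FC 1.33 ± 0.21, SE, adjusted p = 0.000173). WT replicate 1 was the highest WT library for all 3. Col8a1 (log2FC 2.25 ± 0.20, SE, adjusted p = 1.89e-06), Col4a5, a basement membrane chain (log2FC 1.82 ± 0.20, SE, adjusted p = 8.45e-06), and Col27a1 (log2FC 1.09 ± 0.22, SE, adjusted p = 0.00151) rose, and Col9a1 fell (log2FC -1.01 ± 0.20, SE, adjusted p = 0.00139), the last pair with overlapping groups. Among 22 tested basement membrane genes 7 rose and 2 fell, with Npnt, nephronectin, rising (log2FC 1.6 ± 0.17, SE, adjusted p = 7.77e-06) and Lamc3, a laminin chain at no more than 3.10 CPM, falling (log2FC -2.97 ± 0.36, SE, adjusted p = 2.01e-05).

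Markers of fibro-adipogenic progenitors, the matrix-producing cells of muscle, rose in 5 of 10 cases and summed to 2730, 1231, 1552 and 1066 CPM in WT replicates 1 to 4 and to 2603 to 3420 CPM in Dnm2SL/+. The sum in WT replicate 1 thus lay within the mutant range. Their part in the matrix result was not tested. Without WT replicate 1 24 matricellular, 20 collagen and 11 basement membrane genes rose. Without WT replicate 4 there were 10 matricellular and 7 collagen rises, without WT replicate 2 7 collagen rises, and without WT replicate 3 or Dnm2SL/+ replicate 2 or 5 there were 3 collagen falls. The tendon markers summed to 101.7 to 520.5 CPM in WT and 216.3 to 550.7 CPM in Dnm2SL/+, again with WT replicate 1 the highest of its group.

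Of 34 tested matrix proteases and inhibitors 12 rose and 3 fell, among them Adamts20 (log2FC 1.11 ± 0.14, SE, adjusted p = 2.66e-05) and Mmp19 (log2FC 1.27 ± 0.22, SE, adjusted p = 0.00038), which rose, and Adam9, a surface protease of muscle, which fell (log2FC -0.43 ± 0.07, SE, adjusted p = 0.000237). Of 46 tested genes of TGF-beta and BMP signalling 14 rose and 8 fell. Tgfb1, the ligand itself, stood at 6.82, 5.44, 4.51 and 4.44 CPM in WT and at 11.5 to 14.2 CPM (median 12.9) in Dnm2SL/+ (log2FC 1.27 ± 0.15, SE, adjusted p = 2.23e-05), and Ltbp1, which stores it in the matrix, rose (log2FC 1.29 ± 0.20, SE, adjusted p = 0.000215). Gdf10, a ligand of the family (log2FC 1.27 ± 0.23, SE, adjusted p = 0.000588), and Id4, a target of BMP signals (log2FC 1.69 ± 0.29, SE, adjusted p = 0.000446), rose. Of 18 tested genes of the IGF axis 2 rose and 3 fell. The rises numbered 1 without any of WT replicates 2 to 4 or Dnm2SL/+ replicates 1, 2, 4 and 5, and 5 with WT replicate 1 and Dnm2SL/+ replicates 1 and 6 all left out. The insulin receptor Insr fell from 117, 99.9, 127 and 111 CPM to 80.4 to 94.6 CPM (median 86.8) (log2FC -0.39 ± 0.08, SE, adjusted p = 0.001), and the RNA-binding protein Igf2bp2 rose (log2FC 1.72 ± 0.35, SE, adjusted p = 0.00147). Of 22 tested imprinted growth genes 6 rose and 2 fell, among them Peg3 (log2FC 1.22 ± 0.22, SE, adjusted p = 0.00068) and Mest (log2FC 1.43 ± 0.30, SE, adjusted p = 0.00176), which rose. Leaving out any 1 of WT replicates 1 to 3 or Dnm2SL/+ replicates 1 to 5 left 1 imprinted gene that fell.

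Among 18 tested serpins 5 rose and 4 fell. Serpinb8 rose from 1.02, 0.684, 1.31 and 0.917 CPM to 5.97 to 14 CPM (median 11.3) (log2FC 3.46 ± 0.28, SE, adjusted p = 1.13e-06) and Serpinb6a from 316, 228, 281 and 281 CPM to 505 to 780.1 CPM (median 691) (log2FC 1.26 ± 0.15, SE, adjusted p = 1.9e-05). The 4 that fell, Serpina3m, Serpind1, Serpina1b and Serpinc1, are products of the liver, and WT replicate 2 held the highest level of each. None of these 4 was called without WT replicate 2. Serpinc1, antithrombin, named here after its values were seen, stood at 0.448, 8.46, 0.241 and 0.367 CPM in WT replicates 1 to 4 and at no more than 0.497 CPM in Dnm2SL/+.

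A list of 25 hepatocyte genes was therefore written after these values were seen. Their sum was 454.5 CPM in WT replicate 2 and 14.64 to 44.55 CPM in the other 9 libraries, and WT replicate 2 was the highest of the 10 libraries for all 23 tested members. Alb, serum albumin, stood at 10.8, 225, 3.86 and 8.51 CPM in WT replicates 1 to 4 and at 4.10 to 12.4 CPM (median 6.94) in Dnm2SL/+. Of the 23 genes 21 were called down in Dnm2SL/+, and without WT replicate 2 none was. Falls of liver genes in this comparison therefore rest on 1 WT library. Without it 4425 genes were called in all, and 4189 of the 5021 calls were kept in the same direction.

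Of 10 macrophage markers 3 rose and none fell, and their sum was 101.8, 47.07, 52.39 and 43.99 CPM in WT replicates 1 to 4 and 75.91 to 160.6 CPM in Dnm2SL/+. Of 35 tested chemokines, cytokines and receptors 6 rose and 2 fell, including Cxcl16 (log2FC 1.28 ± 0.23, SE, adjusted p = 0.000612) and Tnfrsf1a (log2FC 0.40 ± 0.08, SE, adjusted p = 0.00174), which rose, and Lifr, the receptor of leukaemia inhibitory factor (log2FC -0.80 ± 0.12, SE, adjusted p = 0.00015), which fell from 69.5, 77.5, 90.4 and 91 CPM to 39 to 65.7 CPM (median 43.8). Of 19 tested complement genes 4 rose and 1 fell, or 8 rose without WT replicate 1 and 2 without WT replicate 2, 3 or 4 or Dnm2SL/+ replicate 1, with Cd55, a shield against complement (log2FC 0.57 ± 0.11, SE, adjusted p = 0.0011), and Cd59a (log2FC 0.28 ± 0.06, SE, adjusted p = 0.00298) rising and Cr1l falling (log2FC -0.24 ± 0.05, SE, adjusted p = 0.00167). Of 8 endothelial markers 1 fell and none rose, with sums of 522.9 to 637 CPM in WT and 408.6 to 519.8 CPM in Dnm2SL/+ that did not overlap. Only Flt1 had groups that did not overlap, at 140.2 to 206.2 CPM in WT and 74.08 to 121 CPM in Dnm2SL/+. The groups of every other endothelial marker overlapped, so the sums do not show a fall of these markers as a set. Of 6 markers of smooth muscle and pericytes 2 fell and none rose, with sums of 676.8 to 856.9 CPM in WT and 535.5 to 646.8 CPM in Dnm2SL/+. No tested marker of adipocytes, Schwann cells, red cells or lymphocytes and neutrophils was called. The adipocyte sum overlapped between the groups and was highest in WT replicate 1 (81.66 CPM) and Dnm2SL/+ replicate 6 (109.5 CPM), and that of Schwann cells in Dnm2SL/+ replicate 3 (266.8 CPM).

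Interferon-induced genes were highest in 1 mutant library. Of 43 tested members of the interferon and the class I presentation lists together 40 were highest in Dnm2SL/+ replicate 1. Iigp1, an interferon-induced GTPase, stood at 6.53, 7.25, 7.40 and 7.08 CPM in WT and at 165, 5.95, 6.87, 11.3, 4.91 and 5.97 CPM in Dnm2SL/+ replicates 1 to 6. It was not called (log2FC 2.24 ± 0.95, SE, adjusted p = 0.0843), and without replicate 1 its log2FC was -0.0013. Of 26 tested interferon genes 1 was called up and none down, with 2 up without WT replicate 1 or Dnm2SL/+ replicate 3 or 5 and 1 down without Dnm2SL/+ replicate 1. The gene called up was Ifitm3, an inhibitor of virus entry, at 24, 20.8, 20.5 and 16.5 CPM in WT and 37.7 to 53.7 CPM (median 41) in Dnm2SL/+ (log2FC 1.09 ± 0.12, SE, adjusted p = 8.04e-06), in which replicate 4 was the highest and not replicate 1. Among the 17 class I and immunoproteasome genes 3 rose, H2-T23 (log2FC 0.79 ± 0.16, SE, adjusted p = 0.00173), Psmb10 (log2FC 0.46 ± 0.14, SE, adjusted p = 0.0168) and Psme2 (log2FC 0.34 ± 0.08, SE, adjusted p = 0.00454), each without overlap. Without WT replicate 3 Psmb10 was not called (adjusted p = 0.0578), and without Dnm2SL/+ replicate 5 there were 6 rises. H2-T23 stood at 22 CPM in replicate 1 and at 11.7 to 13.2 CPM in the other 5 mutants.

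Circadian clock genes were called downward only. Of 24 tested genes 9 fell and none rose, with a median log2FC of -0.48. Nr1d2, a repressor, fell from 145, 138, 207 and 173 CPM to 96.4 to 123 CPM (median 101) (log2FC -0.64 ± 0.13, SE, adjusted p = 0.00133), Bhlhe41 (log2FC -0.53 ± 0.11, SE, adjusted p = 0.00216) fell too, and Hlf, an output factor of the clock, fell from 10.1, 9.89, 15.5 and 12.9 CPM to 2.26 to 7.72 CPM (median 2.95) (log2FC -1.72 ± 0.36, SE, adjusted p = 0.00173). The labels give no time of day of tissue collection, so its part was not tested. Without single libraries the falls ranged from 6 (without WT replicate 3) to 13 (without Dnm2SL/+ replicate 1), and 1 gene rose without Dnm2SL/+ replicate 1, 5 or 6.

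The mutant libraries were not equally far from WT. For each library the comparison was refitted without it, and its deviation from the WT mean was set against the log2FC of the genes then called. A slope of 0 stands for the WT mean and 1 for the full fitted difference. The prior count in log2 CPM and the choice of genes by their calls tend to lower the slopes. A slope below 1 therefore does not show that a mutant library falls short, and the slopes are read by their order. The slopes were 0.69, 0.91, 0.79, 0.92, 0.82 and 0.58 for Dnm2SL/+ replicates 1 to 6. They were 0.21, 0.06, 0.08 and -0.01 for WT replicates 1 to 4. The groups did not overlap on this scale, with Dnm2SL/+ replicate 6 the nearest to WT and WT replicate 1 the nearest to the mutants. In each mutant library 94.3% to 99.49% of these genes lay on the mutant side. In WT replicates 1 to 4 the share was 80.1%, 59.89%, 45.96% and 42.33%, so WT replicate 1 also lay mostly on that side.

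**Figure D5:**
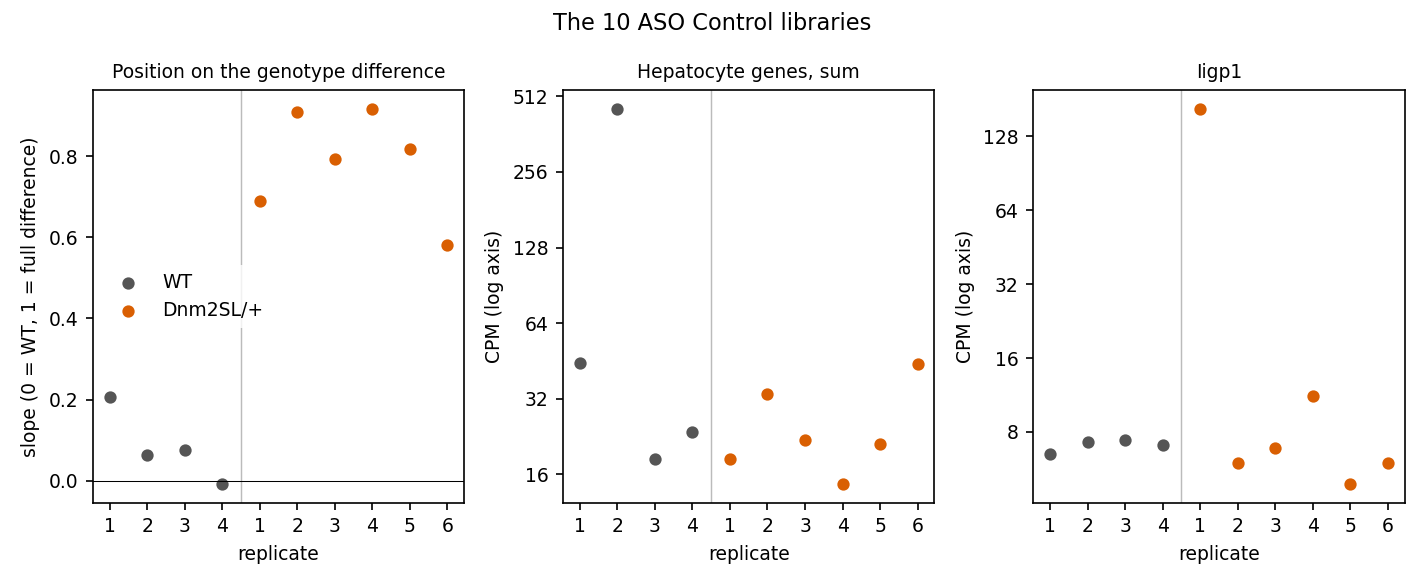
Position along the genotype difference (slope, left), summed CPM of 23 hepatocyte genes (middle, log axis) and CPM of Iigp1 (right, log axis) in each of the 10 libraries, 1 point per library. The slopes run from 0.58 to 0.92 in Dnm2SL/+ and from -0.01 to 0.21 in WT, WT replicate 2 stands at 454.5 CPM of hepatocyte genes, and Dnm2SL/+ replicate 1 at 165 CPM of Iigp1.

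Some genes varied among the mutants more than others. By the SD of log2 CPM over the 6 mutant libraries, the leading genes of at least moderate level were Iigp1, Fos, Odf3l2, Rrad, Apold1, Cfd, Egr1 and Cish. Egr1, an immediate early transcription factor, stood at 6.24, 4.39, 11.4 and 15.3 CPM in WT and at 17.8, 102, 139, 170, 53.2 and 27.6 CPM in Dnm2SL/+ replicates 1 to 6 (log2FC 3.19 ± 0.61, SE, adjusted p = 0.000918), and replicates 1 and 6 were again the lowest mutants. Fos, another immediate early gene, ranged from 4.13 to 122 CPM in the mutants and from 7.24 to 64.3 CPM in WT and was not called (log2FC 0.64 ± 0.82, SE, adjusted p = 0.59), with a log2FC of -0.25 without replicate 4. Odf3l2 fell (log2FC -1.76 ± 0.56, SE, adjusted p = 0.0246), from 71.2, 50.6, 39.5 and 75.2 CPM to 1.58 to 41.3 CPM (median 15.1), though replicate 1 at 41.3 CPM lay within the WT range and the call was lost without WT replicate 1 or 4 or Dnm2SL/+ replicate 3 (adjusted p = 0.0511 to 0.0659). Apold1, Cish and Cfd, the adipocyte protein adipsin, were not called (adjusted p = 0.377, 0.179 and 0.900).

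Many genes could be placed close to no change. The 95% confidence interval of the log2FC lay within 1.5-fold of no change for 7725 genes (49.4%), of which 1844 were called for a small difference. For 4747 genes neither statement could be made at this depth and spread. When WT replicate 1 and Dnm2SL/+ replicates 1 and 6 were left out together, 4238 of the 5021 calls were kept in the same direction and none was called in the opposite one.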

How the data were processed

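RNA of the tibialis anterior was extracted with TRI Reagent and made into libraries with the TruSeq Stranded mRNA kit, per the labels. The submitters' processing notes name the trimmer cutadapt 1.10, the aligners STAR 2.5.3a and Bowtie2 2.2.8, the counter HTSeq 0.6.1p1 and the builds mm10 and GRCm38, while the annotation release and the strand setting are not given in the sources used here. The authors deposited whole-number counts per Ensembl gene, not normalised, in 1 table in which 0 columns were left unused. The title and treatment of WT ASO Control 4 had been corrected by the submitters after deposition.

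From these counts edgeR 4.0.16 (R 4.3.3) fitted 1 mean per group over all 16 libraries with TMM scaling and filterByExpr, and tested genes by quasi-likelihood with 12 residual degrees of freedom. Standard errors were obtained by dividing the size of the log2FC by the root of its F statistic. CPM refer to the scaled library totals, with a prior count of 2 for log2 CPM. No 2 of the 10 libraries agreed within sampling noise (45 pairs, chi-squared per degree of freedom 9.87 to 157). Intervals cover the spread between libraries. Gene names, coordinates and overlaps were taken from GENCODE on GRCm38.

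The members and the 48 gene lists were chosen with earlier results of these data known. Named were Dnm2, the 10 genes of smallest p in each direction (mean log2 CPM of at least 3, groups not overlapping), ranks 9 to 16 by log2FC, the 6 largest CPM differences, up to 4 genes of smallest p per list and the 8 most variable among the mutants. Of the 229 genes so picked, 58 share exon sequence with a gene on the other strand and 4 with one on the same strand, and their counts are uncertain to that extent. DESeq2 1.42.0 and limma 3.58.1 were used as alternatives, beside other scalings, filters, a replicate block and leaving out each library. Scripts were tested on simulated data. The hepatocyte list, Serpinc1, Alb and the alternative without 3 libraries were chosen after seeing the data. Some genes that the rule picked are not reported here.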

Additional observations from a re-analysis of the deposited data

Results flagged for a closer look

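The genotype difference was compared between the oligonucleotides by an interaction term, the log2FC of Dnm2SL/+ over WT under ASO Control minus that under ASO1. Of all 15649 tested genes 442 were called for it (edgeR quasi-likelihood test, Benjamini-Hochberg adjusted p under 0.05), 2.82% of those tested. The count rests on few libraries, since WT mice given ASO1 had 2 libraries, and was 30 without WT ASO1 replicate 1. Among the 206 genes named in the text 69 were called (adjusted p = 0.00179 to 0.0485), and 68 of them had the larger absolute log2FC under ASO Control. Many of the named genes were chosen by their p or log2FC under ASO Control, from which the interaction is also computed, so the choice itself pushes both counts this way and they are a description only. Each value below is the interaction on the log2 scale.

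Of the 69 genes called for the interaction, those that fell under ASO Control had negative values. They were -1.59 for Mstn, -0.85 for mt-Nd5, -0.78 for Prkab2, -0.72 for Scn4a, -0.62 for Scn4b, -0.59 for Ghr, -0.44 for Itsn1 and -0.39 for Mapk9, of secreted, mitochondrial, channel and signalling genes. The metabolic genes gave -0.70 for Gpcpd1, -0.74 for Aldh6a1, -0.42 for Mccc1 and -0.38 for Suclg1. The others gave -0.98 for Klhl33, -0.58 for Atg9a, -0.55 for Ulk1, -0.58 for Tln2, -0.57 for Osbpl6 and -0.48 for Zfp609.

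Of the 69 genes, those that rose under ASO Control had positive values. Cytoskeletal and nuclear envelope genes gave 2.29 for Tubb6, 0.66 for Tubb5, 1.44 for Nes, 0.81 for Des, 1.19 for Lmna, 0.93 for Pdlim3, 0.64 for Bin1, 0.32 for Rhoa, 1.02 for Rhoc and 0.47 for Cttn. Membrane-binding and caveolar genes gave 1.53 for Anxa2, 1.31 for Anxa4, 0.61 for Trim72, 1.00 for Cav3, 1.02 for Cavin4, 0.43 for Pacsin3, 1.28 for S100a13, 0.67 for S100a16, 0.56 for Itgb1, 2.00 for Cpne2 and 2.07 for Ahnak2. The endplate and muscle formation genes gave 0.78 for Chrnb1, 2.40 for Myog and 1.48 for Tead4, and the matrix gene Postn 1.99. Chaperones, stress and redox genes gave 0.97 for Hspb3, 1.1 for Hspb8, 0.59 for Xbp1, 0.64 for Gpx1, 0.83 for Gss and 2.42 for Mt2. Genes of protein breakdown, the lysosome and translation gave 0.47 for Psmb4, 0.57 for Psmd13, 0.77 for Hexa, 1.01 for Cd63, 0.41 for Gabarap, 0.38 for Eef1b2, 0.68 for Rps20 and 0.63 for Mrps12. The remaining ones gave 1.71 for Tspo, 2.58 for Serpinb1a, 1.32 for Serpinb6a, 1.18 for Mvp, 1.12 for Nfkb2, 1.31 for Plekho1, 1.83 for Ttc9, 2.57 for Cx3cl1, 0.83 for Ifitm3, 1.13 for Camk2d, 0.65 for Hprt and 0.38 for Oaz2. Of these only Rps20 had a larger absolute log2FC under ASO1 (-0.35) than under ASO Control (0.33).

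In 39 of 420 sets of 4 or 6 libraries 1 library stood apart from the rest of its group by Dixon's criterion, applied to CPM. Its nominal rate of about 1 in 20 does not apply here. Some genes were named for their spread among the mutants or after a high library was seen, and the sets share the same libraries. The count is a description only. WT replicate 1 stood apart with 48.3 CPM for Anxa2, 21.4 CPM for Postn, 57.9 CPM for Mt2, 6.98 CPM for Cpne2, 105 CPM for Itsn1, 6.60 CPM for Kcnn3 and 1.51 CPM for Pdk3, below its group for Itsn1 and above it for the others. WT replicate 2 did so with 454.5 CPM for the summed hepatocyte genes, 225 CPM for Alb, 8.24 CPM for Serpina1b, 1.96 CPM for Serpina3m, 8.46 CPM for Serpinc1, 1.65 CPM for Serpind1, 21.7 CPM for Apold1 and 0.560 CPM for Krt18. WT replicate 3 stood apart with 64.3 CPM for Fos and 279.6 CPM for Foxo4, and WT replicate 4 with 48.5 CPM for Lgr4.

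Among the mutants, replicate 1 stood apart with 165 CPM for Iigp1, 22 CPM for H2-T23, 19.9 CPM for Psmb10, 3.03 CPM for Psat1, 7.72 CPM for Hlf and 224 CPM for Cul3. Replicate 6 did so with 14101 CPM for Myh1, 1316 CPM for Hspb7, 238 CPM for Sptb, 44.2 CPM for Mettl21c, 62.7 CPM for Kcng4, 33.2 CPM for Ighm, 11.4 CPM for Ces1d, 3.43 CPM for Tiam1 and 57.2 CPM for Cfd, nearer to the WT level than the other mutants except for Sptb, where it was the farthest from WT, and Cfd, whose groups overlapped. Replicate 3 stood apart with 4.43 CPM for Col9a1 and 0.315 CPM for Serpind1, replicate 4 with 61.3 CPM for Apold1, 122 CPM for Fos and 9.76 CPM for Mest, and replicate 5 with 22901 CPM for Myh4.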

How the results depend on the processing

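The calls kept their direction under the alternatives, while their number varied. No gene called in Dnm2SL/+ against WT was called in the opposite direction under any of the 20 alternatives, and 78.57% (replicate block) to 98.47% (DESeq2) of the 5021 calls were kept. All alternatives refit these libraries or fewer of them, so a reversed call was unlikely from the start and its absence is no independent test. No pairing of the samples by replicate number was seen, though so few libraries cannot exclude one. Correlations of same-numbered libraries were -0.0129 to 0.101, and no WT library was most like the mutant of its own number. With the replicate number as a block 4143 genes were called. Upper-quartile scaling moved the share of rises among the calls from 48.9% to 54.2%. Requiring an absolute log2FC above 1 left 1202 genes, or 780 among genes above 1 CPM in at least 4 libraries. The interaction was called for 442 genes, for 1076 with DESeq2, and for 30 (without WT ASO1 replicate 1) to 706 (without Dnm2SL/+ ASO Control replicate 1) when single libraries were left out, and the cause was not tested. Dnm2, not called, had a log2FC of -0.0081 without WT replicate 3 (range over single libraries -0.0081 to 0.17).

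Of the other genes picked by the naming rule, 4485 of 4551 values under the alternatives kept their direction and side of the threshold, 46 lost the call and 14 gained it. The 6 that turned direction were of genes not called, with log2FC -0.0013 (Iigp1, without Dnm2SL/+ replicate 1), -0.25 (Fos, without Dnm2SL/+ replicate 4) and, for Cfd, 0.53 (without WT replicate 1), 0.0011, 0.059 and 0.030 (without Dnm2SL/+ replicates 1, 4 and 5). Over all single libraries their log2FC reached 2.47 for Iigp1 and 1.91 for Fos, and for Cfd ranged from -1.24 to 0.53. Atf4 was also not called under 6 alternatives that kept every library (adjusted p = 0.0505 to 0.0857). Of 864 counts of list members under alternatives that kept every library 825 stayed within 1.5 times, among the others 4 rises of proteasome subunits with the replicate block, 4 falls of the integrated stress list with limma and 0 falls of serpins above 1 CPM. Low counts limited what could be seen below 1 CPM, where the median standard error of a log2FC was 0.39.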
